A study of Mus musculus with 12 samples.

Results

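C-type lectin receptors are membrane proteins of phagocytes that bind carbohydrates and lipids through a lectin-like domain. The genes of 10 such receptors were taken by symbol from a deposited expression table of 55291 gene symbols, and all 10 were found. They are Clec7a, Clec4n, Clec4e, Clec4d, Clec4a1, Clec4a2, Clec4a3, Clec12a, Clec10a and Mrc1. RNA had been sequenced from alveolar macrophages, which take up inhaled particles and microbes, flow-sorted from the lungs of female C57BL6/NJ mice aged 8 to 11 weeks. Of 12 mice, 6 had breathed 0.8 ppm ozone and 6 filtered air, for 4 hours on each of 4 days, and lungs were taken 3 days after the last exposure. The labels name no transgene or engineered allele, and each flow-sort batch held 3 mice of each group. The study's question was the transcriptome of alveolar macrophages in tolerance to ozone.

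The receptors fall into classes by how they signal. Clec7a encodes Dectin-1, the receptor for fungal beta-glucan, which carries its own activating tyrosine motif. Clec4n (Dectin-2), Clec4e (Mincle) and Clec4d (MCL) signal through the Fc receptor gamma chain, the kinase Syk and the adaptor Card9. Clec4a1, Clec4a2 and Clec4a3 belong to the dendritic cell immunoreceptor (DCIR) family, of which Clec4a2 encodes the inhibitory founding member. Clec12a encodes an inhibitory receptor that recruits phosphatases. Clec10a and Mrc1, the latter encoding the mannose receptor CD206, are chiefly endocytic receptors for glycoproteins.

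Each value is variance-stabilized expression on a log2 scale, expressed as a difference from the filtered-air mean, which is 0 for every gene. The level of one receptor relative to another was therefore not kept, and differences of weakly expressed genes are compressed. Read totals cannot be taken from such values. In all 10 genes, every mouse lay above any minimum that mice of its batch shared, and all 10 passed the filter that left 19633 genes for testing. All 15 listed markers of resident alveolar macrophages, Siglecf, Marco and Car4 among them, were likewise above such a minimum in every mouse, but so were the 10 listed monocyte markers, and without levels the sorted cell type cannot be checked further.

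Of the 10 receptor genes, 1 changed after ozone at an adjusted p under 0.05 (limma with Benjamini-Hochberg adjustment over all genes tested). It was Clec4a1, which fell. Among all genes tested 4.25% were called, 2.41% as higher and 1.84% as lower. The other 9 receptors had adjusted p-values between 0.31 and 0.973. In this fit 1 receptor, Clec4a1, had an unadjusted p under 0.05, beside 16.7% of all genes tested, while other fits gave up to 4 such receptors. The median difference over the 10 receptors was -0.047, beside -0.0033 over all genes tested, with 3 receptors higher and 7 lower. The group ranges were separate for Clec4a1 alone, beside 3.53% of all genes tested.

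**Figure D1:**
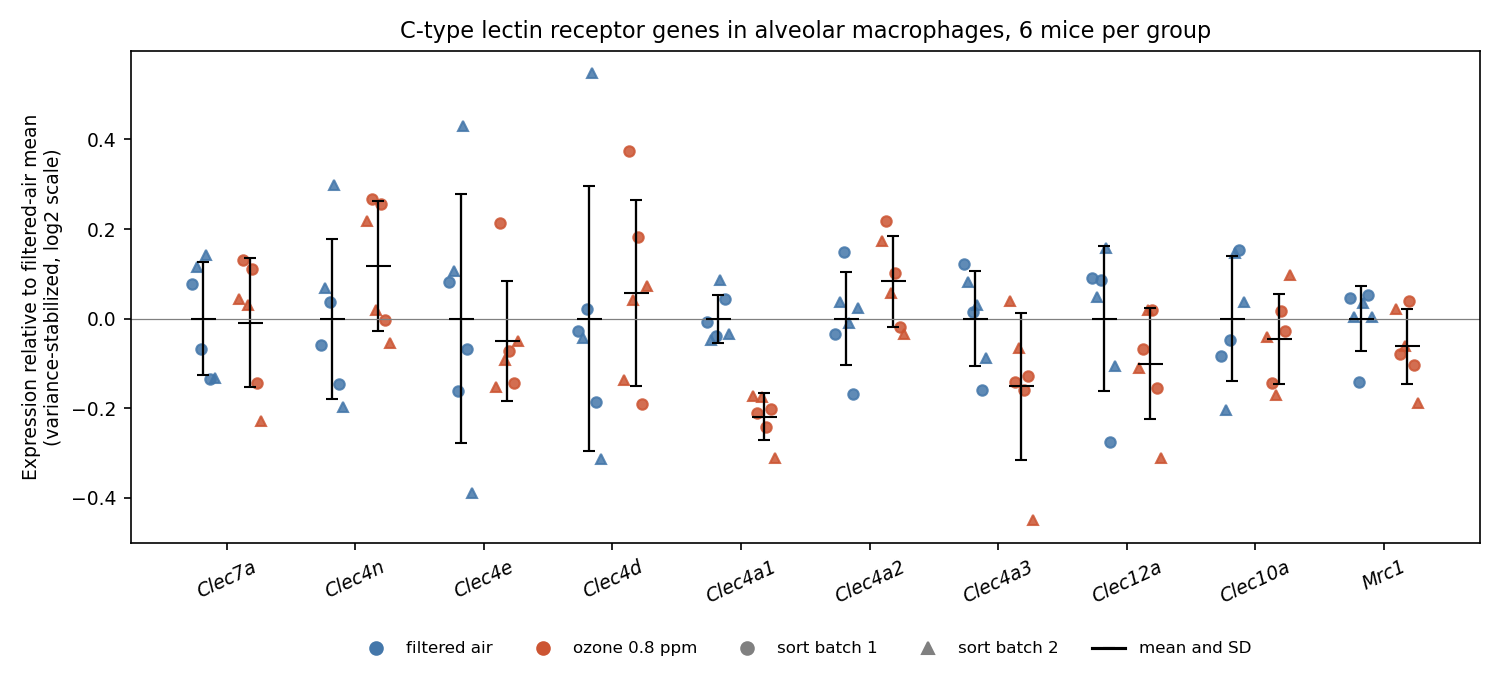
Expression of the 10 receptor genes in each mouse, as variance-stabilized log2 values relative to the filtered-air mean (vertical axis), by gene (horizontal axis). Points are mice, with 6 per group, the point shape gives the flow-sort batch, and black bars give the mean and SD. For Clec4a1 the 6 ozone mice lie between -0.31 and -0.17, below every filtered-air mouse, while the groups overlap for the other 9 genes.

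Promoter sequences are shown for the called gene Clec4a1, for Clec4a2 of the same family and cluster, which was not called, and for the neighbours Clec4d and Clec4e, whose values were correlated from mouse to mouse as described below. Windows run from 250 bases before to 50 bases after the start site (RefSeq, GRCm38.p6, the assembly that mm10 denotes). They lie at chr6:122921598-122921897 on the plus strand for Clec4a1, chr6:123122440-123122739 on the plus strand for Clec4a2, chr6:123261857-123262156 on the plus strand for Clec4d and chr6:123289822-123290121 on the minus strand for Clec4e. Capitals mark GAGGAA or its reverse complement, the core of the PU-box to which the myeloid factor PU.1 is known to bind.
Clec4a1: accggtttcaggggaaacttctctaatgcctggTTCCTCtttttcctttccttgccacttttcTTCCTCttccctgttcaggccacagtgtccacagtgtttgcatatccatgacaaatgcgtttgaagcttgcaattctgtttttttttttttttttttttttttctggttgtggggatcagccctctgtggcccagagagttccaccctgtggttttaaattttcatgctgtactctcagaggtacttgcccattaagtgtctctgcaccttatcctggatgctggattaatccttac
Clec4a2: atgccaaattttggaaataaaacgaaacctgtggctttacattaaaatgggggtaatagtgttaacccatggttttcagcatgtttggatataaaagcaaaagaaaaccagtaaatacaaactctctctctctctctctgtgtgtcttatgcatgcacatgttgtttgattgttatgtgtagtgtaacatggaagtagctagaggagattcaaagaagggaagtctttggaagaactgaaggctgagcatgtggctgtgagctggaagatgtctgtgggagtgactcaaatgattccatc
Clec4d: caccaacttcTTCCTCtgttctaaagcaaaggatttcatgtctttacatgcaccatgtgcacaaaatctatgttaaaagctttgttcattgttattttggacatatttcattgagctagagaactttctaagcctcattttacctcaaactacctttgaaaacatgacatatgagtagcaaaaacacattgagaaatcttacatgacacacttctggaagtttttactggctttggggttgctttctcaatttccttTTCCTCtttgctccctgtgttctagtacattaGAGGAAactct
Clec4e: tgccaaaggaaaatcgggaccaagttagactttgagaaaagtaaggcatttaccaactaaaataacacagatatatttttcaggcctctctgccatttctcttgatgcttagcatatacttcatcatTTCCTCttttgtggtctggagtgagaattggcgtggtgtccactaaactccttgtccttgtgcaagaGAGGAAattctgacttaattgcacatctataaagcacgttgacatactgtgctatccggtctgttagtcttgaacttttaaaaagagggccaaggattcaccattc
The Clec4a1 window held 2 matches, both upstream of the start site. The Clec4d window held 3, Clec4e 2 and Clec4a2 0. For 8 of the 10 receptors 10 promoter windows were found, and 8 of these windows held a match, beside 28.3% of all 32851 windows of this length. Clec7a has a pair of overlapping windows, as has Clec4a3. The other motifs searched on both strands were TGANTCA (AP-1), TTGCNNAA (C/EBP) and TCATGTG (MiT/TFE factors), found in 7.81%, 10.8% and 3.77% of all windows. None of these 3 matched in the Clec4a1 window. Clec4a2 and Clec12a held an AP-1 match each, and Clec4e and Clec12a a C/EBP match each. Such matches describe letters and say nothing of binding in these cells.

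Among the DCIR genes, Clec4a1 lay between -0.049 and 0.085 in filtered air, with a median of -0.021. After ozone it lay between -0.31 and -0.17, with a median of -0.21. Every ozone mouse was low, and the lowest filtered-air mouse and the highest ozone mouse were 0.12 apart. The gene fell by 0.22 (SE 0.0382, 95% interval -0.30 to -0.14, limma adjusted p = 0.00544). Its ozone mean was -0.22 ± 0.0519 (SD, n = 6), beside 0 ± 0.0537 (SD, n = 6) without ozone. The difference was -0.22 in flow-sort batch 1 and -0.22 in batch 2. With 3 mice against 3, neither batch alone gave a call (limma adjusted p = 0.118 and 0.347), while the call held in each of the other 22 alternative fits. Among those 22 it was closest to the threshold with quantile normalization, at a difference of -0.18 (limma adjusted p = 0.0453). Clec4a1 also had the narrowest spread of the receptors, since only 14.0% of the genes tested had a residual SD as small or smaller. No 50-base stretch of its longest transcript, 50 bases being the read length, occurred in a transcript of another gene of GENCODE M21, so its reads can be told from those of its relatives.

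Clec4a3, whose start lies 30.7 kb from that of Clec4a1, was lower by 0.15 without passing the test (SE 0.0723, limma adjusted p = 0.314). In filtered air it ranged from -0.16 to 0.12 with a median of 0.023, and after ozone from -0.45 to 0.038 with a median of -0.13. Ozone mouse 6 alone lay below all filtered-air mice, so the groups overlapped. Without that mouse the difference was -0.0845. The 95% interval, -0.31 to 0.0039, includes a fall as large as that of Clec4a1.

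Clec4a2 lay on the other side of 0. It ranged from -0.17 to 0.15 in filtered air (median 0.0080) and from -0.034 to 0.22 after ozone (median 0.080). Ozone mice 1 and 2 exceeded every filtered-air mouse, and the other 4 lay within the filtered-air range. The difference was 0.083 (SE 0.0570, 95% interval -0.039 to 0.21, limma adjusted p = 0.530), and it ranged from 0.046 without filtered-air mouse 5 to 0.12 without filtered-air mouse 3. Of the 50-base stretches of its longest transcript, 8.31% also occur in other genes, 114 of them in Clec4a4 and 68 in Clec4b1, so its value is less certain than that of Clec4a1. Whether the changes of Clec4a1 and Clec4a2 differ from each other was not tested.

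**Figure D2:**
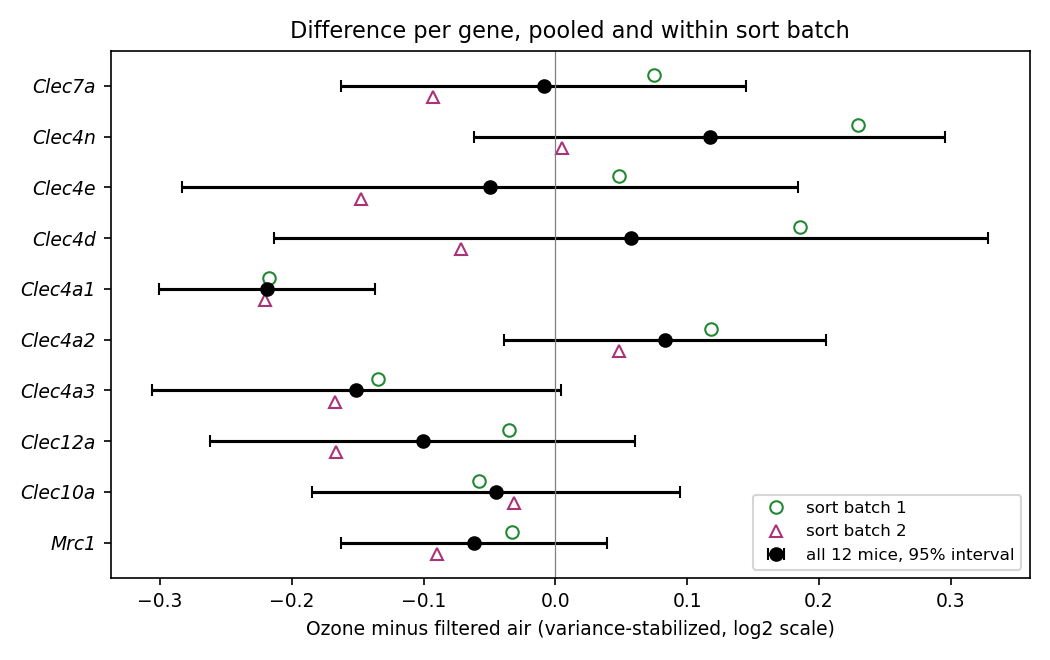
Difference between ozone and filtered air for each receptor gene on the variance-stabilized log2 scale (horizontal axis). Filled points with bars are all 12 mice with the 95% interval from limma, and open symbols are the differences within each flow-sort batch of 3 against 3 mice. The interval excludes 0 for Clec4a1 alone, and its values in both batches coincide with the pooled one.

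The activating receptors did not pass the test. Clec7a ranged from -0.14 to 0.14 in filtered air (median 0.0048) and from -0.23 to 0.13 after ozone (median 0.038). Ozone mice 5 and 6 lay below all filtered-air mice and the other 4 within their range. The difference was -0.0090 (SE 0.0716, 95% interval -0.16 to 0.14, limma adjusted p = 0.973), and it was 0.075 in batch 1 and -0.093 in batch 2. The Clec7a locus overlaps the long noncoding RNA gene Gm45969 in the RefSeq annotation.

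The 3 receptors coupled to the Fc receptor gamma chain differed between the groups by less than the spread between mice of 1 group. Clec4n ranged from -0.20 to 0.30 in filtered air (median -0.011) and from -0.055 to 0.27 after ozone (median 0.12). Ozone mice 1, 2 and 4 were high, but none exceeded filtered-air mouse 4. The difference of 0.12 (SE 0.0835, 95% interval -0.062 to 0.30, limma adjusted p = 0.553) ranged from 0.073 without filtered-air mouse 6 to 0.18 without filtered-air mouse 4. It was 0.23 in batch 1 and 0.0046 in batch 2.

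Clec4e ranged from -0.39 to 0.43 in filtered air (median 0.0071) and from -0.15 to 0.21 after ozone (median -0.082). All ozone mice lay inside the filtered-air range. Its difference was -0.049 (SE 0.109, 95% interval -0.28 to 0.18, limma adjusted p = 0.883), with 0.049 in batch 1 and -0.15 in batch 2. Clec4d ranged from -0.31 to 0.55 in filtered air (median -0.035) and from -0.19 to 0.37 after ozone (median 0.058), again with every ozone mouse inside the filtered-air range. The difference was 0.057 (SE 0.127, 95% interval -0.21 to 0.33, limma adjusted p = 0.883), with 0.19 in batch 1 and -0.071 in batch 2. Both genes were among the most variable, since 97.9% of the genes tested had a residual SD no larger than that of Clec4e and 99.0% no larger than that of Clec4d. The interval of Clec4e includes a fall as large as that of Clec4a1, and the interval of Clec4d includes a rise of that size.

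The inhibitory receptor Clec12a ranged from -0.28 to 0.16 in filtered air (median 0.067) and from -0.31 to 0.019 after ozone (median -0.089). All 6 ozone mice lay below the filtered-air median, but filtered-air mouse 5 was lower than 5 of them. The difference was -0.10 (SE 0.0752, 95% interval -0.26 to 0.060, limma adjusted p = 0.575), and it ranged down to -0.16 if filtered-air mouse 5 was left out and up to -0.054 if ozone mouse 6 was. It was -0.035 in batch 1 and -0.17 in batch 2.

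Of the uptake receptors, Mrc1 ranged from -0.14 to 0.052 in filtered air (median 0.020) and from -0.19 to 0.039 after ozone (median -0.070). Ozone mouse 6 was the only one below all filtered-air mice. The difference was -0.062 (SE 0.0472, 95% interval -0.16 to 0.039, limma adjusted p = 0.588), and it ranged down to -0.093 if filtered-air mouse 3 was left out and up to -0.034 if ozone mouse 6 was. Clec10a ranged from -0.20 to 0.15 in filtered air (median -0.0051) and from -0.17 to 0.098 after ozone (median -0.034), every ozone mouse within the filtered-air range. Its difference was -0.045 (SE 0.0652, 95% interval -0.18 to 0.095, limma adjusted p = 0.809), and it ranged from -0.090 without filtered-air mouse 2 to -0.011 without filtered-air mouse 5. For Clec10a, 242 of the 50-base stretches of its longest transcript, 10.6%, also occur in its neighbour Mgl2. How such reads were shared out is not given in the sources used here. Neither interval includes a change as large as that of Clec4a1.

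In limma's test of whether the ozone difference depended on the flow-sort batch, 0 of the 19633 genes had an adjusted p under 0.05, while the unadjusted p was under 0.05 for 510. The unadjusted p of the 10 receptors in this test lay between 0.190 for Clec4n and 0.971 for Clec4a1.

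Of the 10 receptors, 8 lie in 2 clusters on chromosome 6 (RefSeq, GRCm38.p6). Clec4a1 starts the first at 122921848 and Clec4e ends it at 123289871. Between them 8 genes could be tested, 6 of them receptors described here. Clec4a1 was called and the others were not, beside 4.25% of all genes tested. Clec4a4 and Clec4b1, which lie between Clec4a3 and Clec4a2, had differences of -0.031 (SE 0.0382, limma adjusted p = 0.765) and -0.045 (SE 0.0518, limma adjusted p = 0.744). The second cluster runs from Clec12a at 129349783 to Clec7a at 129472785. All 6 of its genes had a difference below 0, beside 52% of all genes tested, and 1 was called. That gene was Clec1a, a receptor known to recognise fungal melanin, which lies between the uncalled Clec12a and Clec7a.

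Clec1a ranged from -0.092 to 0.18 in filtered air (median -0.039) and from -0.28 to -0.10 after ozone (median -0.21). All 6 ozone mice were below every filtered-air mouse. It fell by 0.20 (SE 0.0497, limma adjusted p = 0.0397), and its call was lost without 1 mouse in 8 of 12 fits. Clec1a overlaps Clec12b in the annotation. Clec1b, Clec9a and Clec12b had differences of -0.31, -0.14 and -0.11 with adjusted p-values of 0.141, 0.282 and 0.207 in limma.

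**Figure D3:**
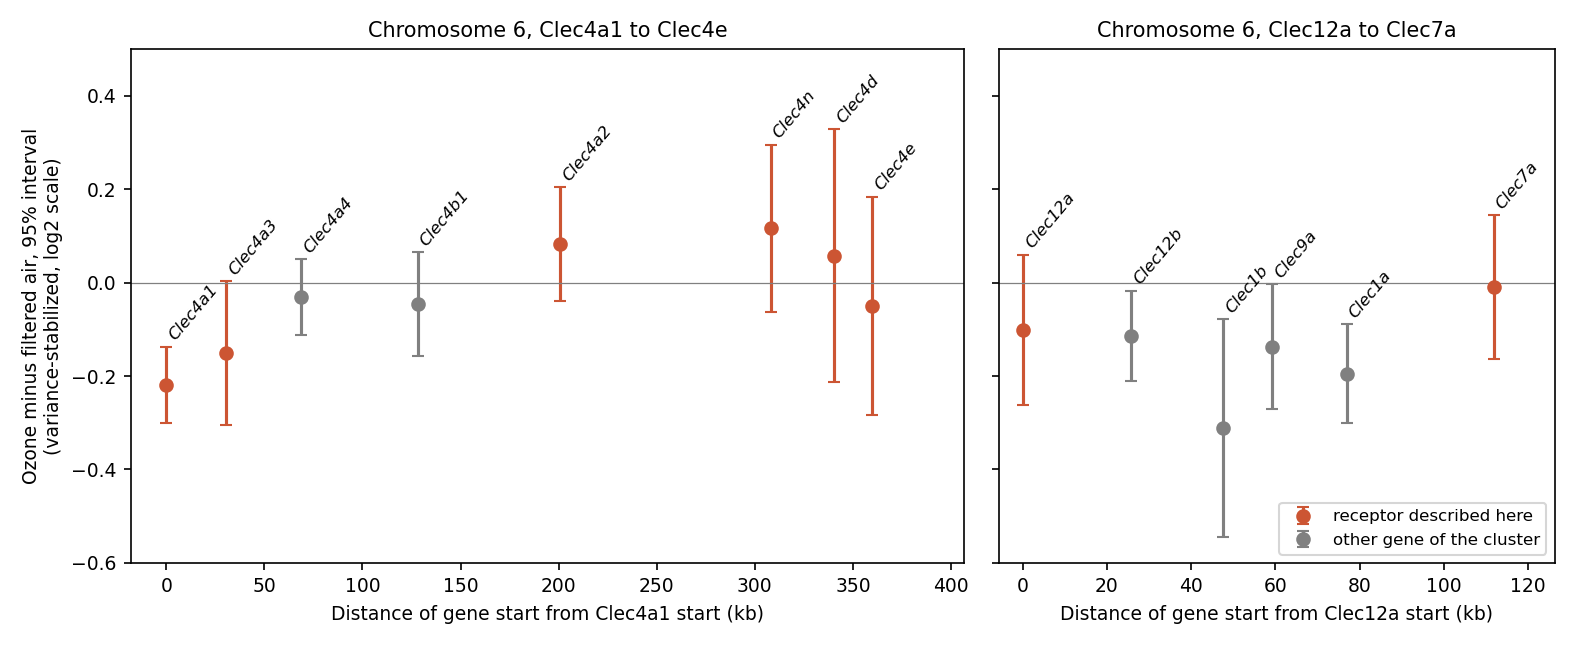
Difference between ozone and filtered air with its 95% interval on the variance-stabilized log2 scale (vertical axis), by distance of the gene start from the first receptor of each chromosome 6 cluster in kb (horizontal axis). Orange points are receptors described here and grey points the other tested genes of the cluster. In the left panel Clec4a1, at -0.22, is the only gene whose interval excludes 0, and in the right panel every gene lies below 0, Clec1a at -0.20 being the one with an adjusted p under 0.05.

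A list of 31 further receptors with a lectin-like fold was examined in the same fit. Of the 27 that could be tested, 7 were higher and 20 lower, with a median difference of -0.045. An unadjusted p under 0.05 in limma was found for 8 of the 27, beside 16.7% of all genes tested. The called genes were Clec1a, lower, and Ly75, higher, or 7.41% of the list beside 4.25% of all genes. Ly75 encodes DEC-205, an endocytic receptor of the mannose receptor family. It ranged from -0.16 to 0.096 in filtered air (median 0.015) and from 0.12 to 0.42 after ozone (median 0.21). Every ozone mouse exceeded every filtered-air mouse, and Ly75 rose by 0.24 (SE 0.0559, limma adjusted p = 0.0232). Ly75 missed the threshold when filtered-air mouse 1 (adjusted p = 0.0600) or ozone mouse 1 (adjusted p = 0.0516) was left out, and with quantile normalization (adjusted p = 0.110). Mrc1, of the same family, gave the value above on the other side of 0.

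The signalling components that these receptors share were listed as 30 genes, all of which could be tested. The median difference was 0.0088, with 17 higher and 13 lower. Of these genes 13.3% were called, 2 higher and 2 lower, beside 4.25% of all genes. An unadjusted p under 0.05 in limma was found for 5 of the 30, beside 16.7% of all genes tested. Fcer1g, Syk and Card9 did not pass the test. The gamma chain gene Fcer1g had a difference of 0.087 (SE 0.0507, limma adjusted p = 0.436), Syk one of 0.032 (SE 0.0431, adjusted p = 0.791) and Card9 one of 0.0059 (SE 0.0668, adjusted p = 0.981). These 3 were picked as textbook steps of the pathway and not by their values. The inhibitory phosphatase gene Ptpn6 had a difference of 0.042 (SE 0.0434, limma adjusted p = 0.711).

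Called genes described here are Prkcd, Lat2 and Egr3. Prkcd, the protein kinase C delta that links Syk to Card9, ranged from -0.077 to 0.091 in filtered air and from 0.0051 to 0.41 after ozone. Of 6 ozone mice 5 exceeded all filtered-air mice, and the gene rose by 0.27 (SE 0.0600, limma adjusted p = 0.0203).

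Lat2, an adaptor of immunoreceptor signalling, ranged from -0.072 to 0.092 in filtered air and from -0.30 to -0.037 after ozone. Of 6 ozone mice 5 lay below all filtered-air mice, and Lat2 fell by 0.21 (SE 0.0490, limma adjusted p = 0.0279). Egr3, an early transcription factor induced through Dectin-1, ranged from -0.26 to 0.34 in filtered air and from -0.76 to -0.17 after ozone. Again 5 of 6 ozone mice were below all those in filtered air, and Egr3 fell by 0.49 (SE 0.119, limma adjusted p = 0.0320). Between 0 and 4 of the list were called when 1 mouse was left out, with 0 without ozone mouse 3. The calls of Lat2 and Egr3 were each lost in 7 of those 12 fits, and that of Prkcd in 2. With all 12 mice Egr3 also missed the threshold without the filter on low values (limma adjusted p = 0.0541), with limma-trend (adjusted p = 0.0641) and with a robust prior (adjusted p = 0.0523).

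Of 15 genes known to be induced through these receptors, 10 were higher and 5 lower, with a median difference of 0.090. An unadjusted p under 0.05 in limma was found for 6 of the 15, beside 16.7% of all genes tested. The called gene was Cxcl2, a neutrophil chemokine, or 6.67% of the list beside 4.25% of all genes. It ranged from -0.49 to 0.35 in filtered air and from 0.31 to 0.78 after ozone, and 5 of 6 ozone mice exceeded all those in filtered air. It rose by 0.51 (SE 0.120, limma adjusted p = 0.0281), and without ozone mouse 3, filtered-air mouse 1, filtered-air mouse 3 or ozone mouse 2 its call was lost. Tnf had a difference of -0.60 (SE 0.180, limma adjusted p = 0.0813), and Il1b one of 0.024 (SE 0.185, adjusted p = 0.972).

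Correlations between receptors were computed across mice after the group and batch means had been removed. Of the 45 pairs of receptors 4 had an adjusted permutation p under 0.05 by Pearson's r, and 1 of them by both measures. The permutations treated the 12 residuals as freely exchangeable, although removing group and batch means ties them to each other. The permutation p-values are therefore too small, and pairs near the threshold may not pass a test that allows for this. Pearson's r was above 0 in 37 pairs, with a median of 0.389 over 12 mice, and the same was not computed for other genes. All pairs share the same 12 libraries. The pair with the highest r was Clec4e with Clec4d (r = 0.870, permutation test p = 0.00024, adjusted over 45 pairs p = 0.0108, Spearman's rho = 0.657, permutation test p = 0.0236, adjusted p = 0.212). It fell to r = 0.677 without the 2 mice farthest from the median of Clec4e, and was 0.704 in batch 1 and 0.941 in batch 2.

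Under the same limit, Clec7a with Clec4n was the pair that passed with both measures (r = 0.824, permutation test p = 0.00184, adjusted p = 0.0222, rho = 0.909, permutation test p = 0.0002, adjusted p = 0.009). Without the 2 farthest mice r was 0.772, and it was 0.810 in batch 1 and 0.843 in batch 2. The lowest r of Clec10a was against Clec4a3, which did not pass adjustment (r = -0.625, permutation test p = 0.0280, adjusted p = 0.116, rho = -0.601, permutation test p = 0.0429, adjusted p = 0.225), and r became -0.334 without the 2 farthest mice. For that pair the relation was -0.829 in batch 1 and -0.558 in batch 2.

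Single mice stood at the extremes for many receptors. Filtered-air mouse 4 had the highest value of its group for 6 of the 10 receptors and lay above the group median for 9. It reached 0.43 for Clec4e and 0.55 for Clec4d. Filtered-air mouse 5 had the lowest value of its group for 4 receptors and filtered-air mouse 6 for 3. Among ozone mice, mouse 2 was highest for 5 receptors and mouse 6 lowest for 7.

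Marker lists also stood at an extreme in some of these mice. The mean over the 10 monocyte markers was 0.35 in filtered-air mouse 4, the highest of a group that went down to -0.19, while ozone mice lay between -0.19 and 0.086. Filtered-air mouse 4 was also the highest of its group in the mean of the lymphocyte list (0.31), the epithelial list (0.27), the interstitial macrophage list (0.23), the neutrophil list (0.20, from the 6 of 10 genes that could be tested) and the dendritic cell list (0.10). Its endothelial and fibroblast mean was 0.20, next to 0.21 in filtered-air mouse 3, and its resident alveolar macrophage mean, -0.081, was the lowest of its group. Ozone mouse 6 likewise had the lowest resident mean of its group (-0.094), with the highest epithelial (0.092) and endothelial and fibroblast (0.26) means. No mouse had a lower RNA integrity number than the 8.9 of filtered-air mouse 4, and ozone mouse 6 had 9.5. In ozone mouse 2, which was high for Clec4d and Clec4e, the monocyte mean was -0.19, the lowest of its group. The part of other cells in the receptor values was not tested, and in sorted bulk RNA a smaller share of cells carrying a transcript cannot be told apart from less transcript per cell.

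The same lists were set beside the fall of Clec4a1. Of the monocyte, interstitial macrophage, dendritic cell and lymphocyte markers, 10 in each list, 0 were called in limma, and the unadjusted p was under 0.05 for 1, 2, 2 and 2 of them, near the 16.7% over all genes tested. The endothelial and fibroblast list also held 0 called genes, with 2 at an unadjusted p under 0.05. The neutrophil list held 1 called gene of 6, Mxd1 (difference -0.38, limma adjusted p = 0.0188), and the epithelial list 1 of 10, Epcam (difference -0.55, limma adjusted p = 0.0062), both lower and named after their values were seen. Filtered-air mouse 4 was also the highest mouse for Clec4a1, and without it the difference was -0.20 (limma adjusted p = 0.0112). Resident alveolar macrophage markers had a median difference of -0.011, but single markers lay on both sides of 0. Of the 15, 20% were called, beside 4.25% of all genes, and 6 had an unadjusted p under 0.05, beside 16.7%. Chil3 and Car4 rose by 0.25 and 0.32 (limma adjusted p = 0.0320 and 0.0460), and Krt79 fell by 0.35 (adjusted p = 0.0177), all 3 named after their values were seen. The part of these changes in the fall of Clec4a1 was not tested.

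**Figure D4:**
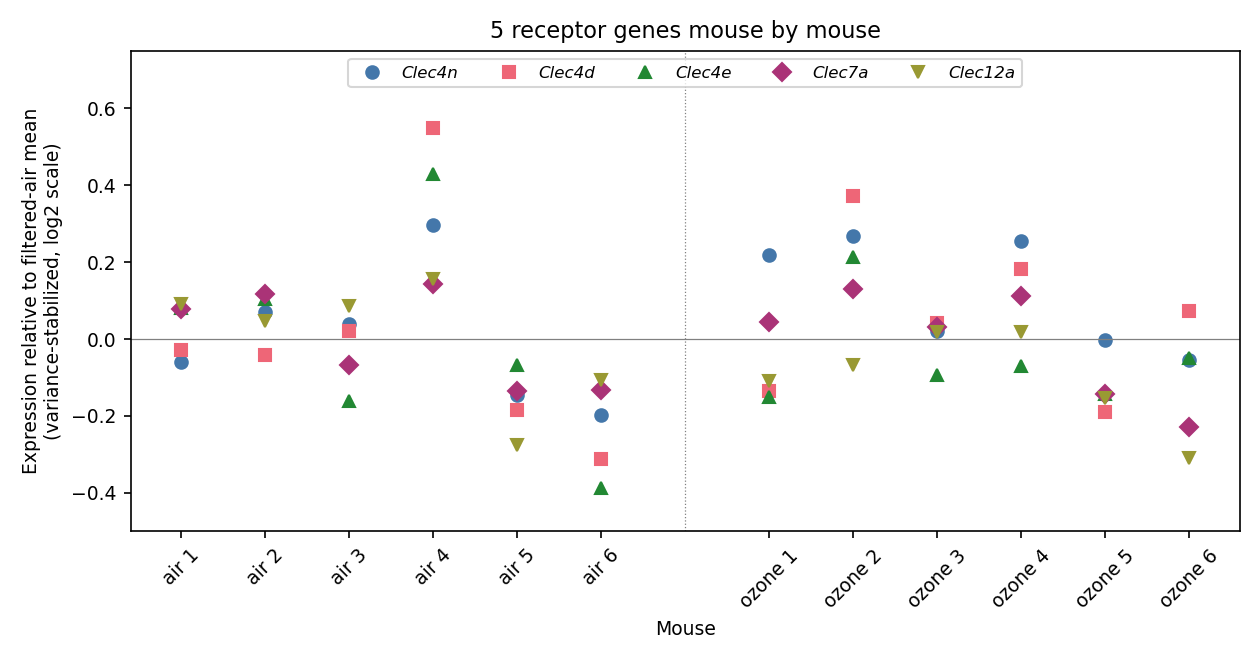
Expression of Clec4n, Clec4d, Clec4e, Clec7a and Clec12a in each of the 12 mice (horizontal axis) on the variance-stabilized log2 scale relative to the filtered-air mean (vertical axis). Each symbol is 1 gene in 1 mouse. The symbols are all high in filtered-air mouse 4, from 0.14 for Clec7a to 0.55 for Clec4d, and all below 0 in filtered-air mice 5 and 6.

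The genes whose pattern over the 12 mice was most like that of Clec4a1 were Frs2, Jdp2 and Rbpms, with a Pearson r of 0.965, 0.948 and 0.945. These are the 3 highest among 19633 genes and are given as a description, since each of them also differs between the groups. Jdp2, which encodes a repressor of AP-1 transcription factors, ranged from -0.20 to 0.28 in filtered air and from -0.66 to -0.40 after ozone. It fell by 0.53 (SE 0.0733, limma adjusted p = 0.0016). Rbpms, which encodes an RNA-binding protein, fell by 0.32 (SE 0.0474, limma adjusted p = 0.00193). Frs2, an adaptor of fibroblast growth factor receptors, fell by 0.14 (SE 0.0331, limma adjusted p = 0.0311), a call lost in 9 of 12 fits without 1 mouse. In all 3 genes every ozone mouse lay below every filtered-air mouse.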

How the data were processed

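RNA of flow-sorted alveolar macrophages from 6 ozone and 6 filtered-air mice was compared. The labels' protocols name a stranded mRNA library kit and paired-end reads of 50 bases. The authors' deposited values are on a log2 scale, variance-stabilized and batch-corrected as the table is named. The submitters' processing notes list cutadapt, STAR 2.7.7a, Salmon 1.5.2, DESeq2 1.26.0, R 3.6.0, limma 3.42.2 and mm10, without their roles.

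A value was taken as a shared minimum where at least 2 mice of a batch had the lowest value, equal within 1e-06. Genes with at least 6 of 12 mice above it were kept, 19633 of the 25444 that were not constant. Limma 3.58.1 (R 4.3.3) was fitted to exposure and flow-sort batch, with Benjamini-Hochberg adjustment over these genes, and was tested on simulated data. The text names all 10 receptors, the called genes of each list (at most 5), and the 3 genes most correlated with a called receptor. Of the called genes, 1 of the signalling list is not reported here. Others are named as textbook steps, cluster neighbours or as stated. The receptors, lists and tests were chosen with earlier results of these data known. Correlations between receptors used residuals from group and batch and 100000 permutations of the mice. Alternatives were other filters, variance priors, covariates, quantile normalization, single batches and leaving out mice.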

Additional observations from a re-analysis of the deposited data

Results flagged for a closer look

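The highest and lowest mouse of each group were compared with their nearest neighbours for the 10 receptors, in 20 combinations of gene and group, of which chance flags about 1. Ozone mouse 2 stood apart for Clec4e, at 0.21 against -0.049 for the next ozone mouse (Dixon's ratio 0.719). Without it the difference of Clec4e was -0.11. Filtered-air mouse 3 stood apart for Mrc1, at -0.14 against 0.0036 for the next mouse (ratio 0.747). Without it the difference of Mrc1 was -0.093 (limma adjusted p = 0.327).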

How the results depend on the processing

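Of 240 alternative values for the 10 receptors, 223 kept their direction and their side of the threshold, 2 lost the call and 15 changed sign. The lost calls were those of Clec4a1 in batch 1 alone and in batch 2 alone, at differences of -0.22 and -0.22 and with fewer mice. The 15 belong to receptors close to 0. Clec7a was 0.0057 with RNA integrity as a covariate, 0.075 in batch 1 alone and 0.063 without filtered-air mouse 4 and ozone mouse 6, and ranged from -0.040 to 0.040 without single mice. Clec4e was 0.049 in batch 1 alone, 0.064 without both mice numbered 4 and 0.037 without filtered-air mouse 4 and ozone mouse 6, and ranged from -0.14 to 0.046 without single mice. Clec4d was -0.071 in batch 2 alone and ranged from -0.013 to 0.18 without single mice. The fits without 2 mice were chosen after seeing the data.

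Called receptors numbered 1, but 0 in batch 1 alone and 0 in batch 2 alone. Over all genes the 834 calls became 171 with quantile normalization, 90 in batch 1, 0 in batch 2 and 534 without both mice numbered 4, and ranged from 538 to 751 without single mice. The 4 signalling calls became 0 with quantile normalization, 0 in either batch alone, 0 without both mice numbered 4 and 1 without filtered-air mouse 4 and ozone mouse 6 (0 to 4 without single mice). The 2 calls among other lectin-fold receptors became 1 with limma-trend, 0 with quantile normalization, 0 in either batch and 0 without both mice numbered 4 (0 to 2 without single mice). The 1 call among induced products became 0 with limma-trend, 0 with quantile normalization, 0 in either batch and 2 without filtered-air mouse 4 and ozone mouse 6 (0 to 2 without single mice). Beside these counts of 0 from limma, the unadjusted p was under 0.05 in batch 2 for 1800 genes, 1 receptor, 4 signalling genes, 3 other lectin-fold receptors and 4 induced products, in batch 1 for 2167 genes and 2, 6, 6 and 3 of these 4 groups, and with quantile normalization for 2114 genes and 4, 3 and 3 of the last 3. Without both mice numbered 4 it was so for 2752 genes, among them 7 signalling genes and 4 other lectin-fold receptors. The cause was not tested. Named genes other than receptors kept direction in all 240 values and lost the call in 91.

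Same-numbered mice are different animals and were not paired. Deviations of same-numbered mice correlated between -0.0026 and 0.28, and 3 of 6 ozone mice correlated best with their own number. With the replicate block the unadjusted p was under 0.05 for 3981 genes and 4 receptors, and 1219 genes were called, 1 receptor, 4 signalling genes, 4 other lectin-fold receptors and 2 induced products, and Clec4a1 kept its call (adjusted p = 0.00656).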
